A study of Mus musculus with 7 samples.

Results

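The crystallins described here are 9 genes: the alpha crystallins Cryaa and Cryab, the beta crystallins Cryba1, Cryba2, Cryba4, Crybb1, Crybb2 and Crybb3, and Crygs, which is a gamma crystallin by name. They were chosen by gene symbol, with earlier results of these data known, and all 9 were found among the 21861 rows of the deposited count table. The tissue was retinal pigment epithelium (RPE) of aged mice, a pigmented sheet that supports the photoreceptors. Of the 7 libraries, 3 came from mice treated with an adeno-associated virus (AAV) vector for green fluorescent protein (AAV-GFP) and 4 from mice treated with a vector for the glutathione transferase GSTA4 (AAV-GSTA4), all collected 12 weeks after treatment. All groups therefore carried an AAV vector, and no uninjected group was analysed. Strain, sex, exact age, the promoter of the vectors and whether eyes were pooled are not given in the sources used here.

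Crystallins are the soluble proteins that fill lens fibre cells and give the lens its refractive power. The alpha crystallins are small heat shock proteins, chaperones that hold unfolded proteins in solution, whereas beta and gamma crystallins share a fold built from Greek key motifs and serve mainly as structural proteins. Several of them are also made outside the lens: Cryab in muscle, glia and RPE, and Cryba1 in astrocytes and RPE, where it has been tied to lysosome function. Lens crystallin genes are switched on by transcription factors of the Maf, SOX and PAX families, and the Maf proteins bind elements that contain a short half-site.

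The sequence just upstream of the start is shown for the members with a Maf half-site within 120 bases of it and for Crybb2, the member with the most counts in the table, which had none there. RefSeq promoter windows (GRCm38.p6, 250 bases before to 50 after the start) were found for 8 of the 9 genes, all but Cryab. The RefSeq start can differ from that of the gene spans given later, which are from GENCODE M21. Of the stretches printed, that of Cryaa and the last bases of that of Crybb1 lie inside those spans. Each line below gives the 120 bases before the start, 5′ to 3′ on the gene's strand, with matches to the Maf half-site TGCTGA, read on either strand, in capitals.
Cryaa, chr17:31677811-31677930, plus strand: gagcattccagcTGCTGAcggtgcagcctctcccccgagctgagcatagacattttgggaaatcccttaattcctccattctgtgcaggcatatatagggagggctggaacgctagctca
Cryba1, chr11:77725294-77725413, minus strand: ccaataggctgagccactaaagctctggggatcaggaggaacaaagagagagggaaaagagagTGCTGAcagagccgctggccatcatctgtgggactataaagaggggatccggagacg
Cryba4, chr5:112252519-112252638, minus strand: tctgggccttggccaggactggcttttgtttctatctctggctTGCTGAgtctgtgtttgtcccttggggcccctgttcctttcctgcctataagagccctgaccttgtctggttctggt
Crybb1, chr5:112255700-112255819, plus strand: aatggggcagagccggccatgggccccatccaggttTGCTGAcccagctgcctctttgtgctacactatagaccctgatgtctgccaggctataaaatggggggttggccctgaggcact
Crybb3, chr5:113081585-113081704, minus strand: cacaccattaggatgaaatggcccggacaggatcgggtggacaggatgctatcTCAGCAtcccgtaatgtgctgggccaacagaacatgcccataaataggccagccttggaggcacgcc
Crybb2, chr5:113070118-113070237, minus strand: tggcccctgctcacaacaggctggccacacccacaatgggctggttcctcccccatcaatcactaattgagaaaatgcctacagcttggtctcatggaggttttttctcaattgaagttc
The half-site was present in this stretch in 5 of the 8 genes, against 8.18% of 32851 promoter windows of all genes. In the whole windows of 300 bases it was present in 7 of 8, all but Crybb2, against 19.5% of all windows. The SOX core ATTGTT, on either strand, was present in 2 of 8 windows (Crybb1 and Crygs) against 10.7% of all. The heat shock element pair GAANNTTC, a palindrome, was present in 0 of 8 against 7.86%. No searched motif overlapped another in these windows. These matches describe letters in a window and say nothing of what was bound there.

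Library totals lay between 15329181 and 28998964 counts, and 3 counts, taken as the detection floor, corresponded to 0.111 to 0.176 CPM (a gene's count relative to library size, with trimmed-mean scaling of the library sizes). Every member lay far above that floor in every library, the lowest value being 28.7 CPM. AAV-GFP replicate 3 stood apart from the other libraries over all genes, with a mean correlation of 0.838 with them against 0.910 to 0.926 for each of the others. The hGSTA4 transgene row had at most 3 counts in AAV-GFP and at least 45 in AAV-GSTA4, whereas d2EGFP did not separate the labels: AAV-GFP replicate 1 had 99 counts and AAV-GSTA4 replicate 1 had 163. RPE markers were abundant in every library (22776 to 109999 CPM summed over 11 genes), with rod markers at 6559 to 37088 CPM over 10 genes.

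The 9 crystallins went up and down together from library to library. In scaled CPM, each of them was highest in AAV-GSTA4 replicate 2 and lowest in AAV-GFP replicate 3. The lowest place depended on the scaling, whose factor was 1.36 in AAV-GFP replicate 3 and 0.868 in AAV-GSTA4 replicate 3. Relative to unscaled library totals, Cryaa was lowest in AAV-GSTA4 replicate 3 and Crybb1 in AAV-GFP replicate 1. Values per library are given below in replicate order. The share of all counts on the 9 genes was 1.04%, 1.74% and 0.527% with AAV-GFP and 3.07%, 12.6%, 0.533% and 1.53% with AAV-GSTA4. These shares averaged 1.10% ± 0.611 (SD, n = 3) with AAV-GFP and 4.44% ± 5.55 (SD, n = 4) with AAV-GSTA4. AAV-GSTA4 held both a library near the lowest share and the highest one, and the groups overlapped for every member. In such bulk libraries, more cells of a type and more RNA per cell cannot be told apart.

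**Figure D1:**
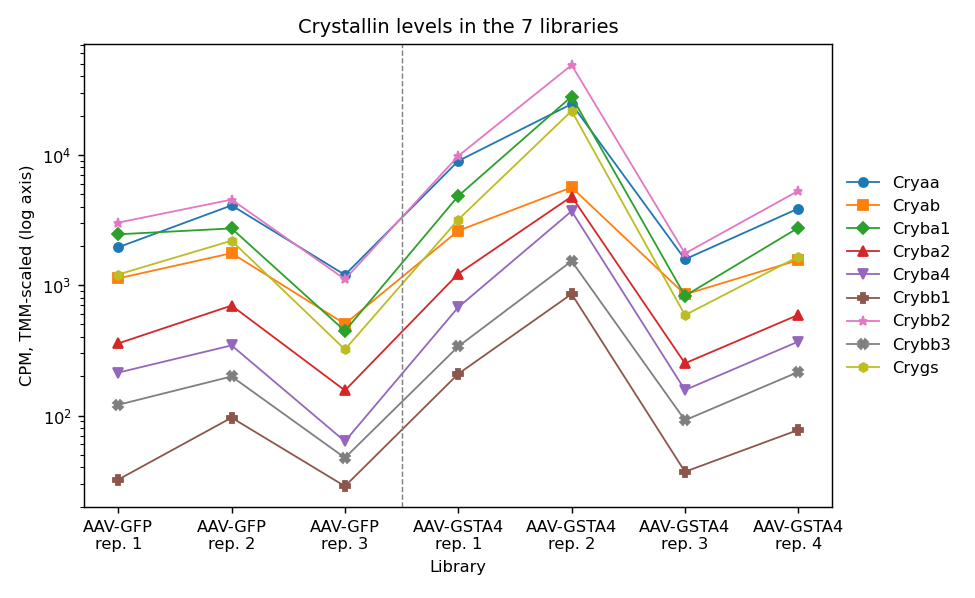
CPM of each of the 9 crystallins (log axis) in the 3 AAV-GFP and 4 AAV-GSTA4 libraries, one point per library; lines only join the points of a gene. In scaled CPM, each gene peaks in AAV-GSTA4 replicate 2 and is lowest in AAV-GFP replicate 3.

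Cryaa (chromosome 17, 31677807 to 31681733, GRCm38), the alpha crystallin most abundant in lens and also made in retina, stood at 1952, 4092 and 1199 CPM with AAV-GFP and at 8969, 24517, 1579 and 3872 CPM with AAV-GSTA4. Its highest library was 20.4-fold above its lowest. Cryab (chromosome 9, 50751325 to 50756636), the widely expressed alpha crystallin, stood at 1128, 1759 and 504.5 CPM in AAV-GFP and at 2615, 5628, 849 and 1557 CPM in AAV-GSTA4. The libraries ranked identically for both alpha crystallins, but Cryab spanned only 11.2-fold, the narrowest range of the 9. Cryab shares exon sequence with its neighbour Hspb2 on the opposite strand, and the strand setting of the counting is not given in the sources used here. Hspb2 itself stood at 1.25 to 18.8 CPM.

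Among the acidic beta crystallins, Cryba1 (chromosome 11, 77718615 to 77725283) was the most abundant. It stood at 2455, 2725 and 445 CPM in AAV-GFP and at 4833, 27988, 828 and 2756 CPM in AAV-GSTA4, a 62.8-fold range. Cryba2 (chromosome 1, 74889934 to 74893143) stood at 357, 698 and 156 CPM in AAV-GFP and at 1223, 4787, 252 and 592 CPM in AAV-GSTA4, a 30.7-fold range. Both were low in AAV-GFP replicate 3 and AAV-GSTA4 replicate 3, and both groups held high and low libraries. Cryba4 (chromosome 5, 112246493 to 112252518) stood at 213, 345 and 63.4 CPM in AAV-GFP and at 677, 3696, 157 and 369 CPM in AAV-GSTA4, a 58.3-fold range.

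Crybb2 (chromosome 5, 113058258 to 113070117), a basic beta crystallin, had the most counts of the 9 in every library except AAV-GFP replicate 3, where Cryaa had more. It stood at 3019, 4529.8 and 1111 CPM in AAV-GFP and at 9798, 48800.5, 1751 and 5290.2 CPM in AAV-GSTA4. Crybb3 (chromosome 5, 113075839 to 113081584) stood at 121, 199 and 47.4 CPM in AAV-GFP and at 339, 1529.7, 92.0 and 216 CPM in AAV-GSTA4. These neighbouring genes ranked the 7 libraries in the same order. Crybb1 (chromosome 5, 112255815 to 112269585) had the fewest counts, at 32.3, 96.3 and 28.7 CPM in AAV-GFP and 209, 856, 37.0 and 77.6 CPM in AAV-GSTA4. Its libraries were ordered unlike those of the other 8, with AAV-GFP replicate 1 below AAV-GSTA4 replicate 3.

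Crygs (chromosome 16, 22805203 to 22811577), the gamma S crystallin of the lens cortex, had the widest range of the 9, at 67.6-fold. It stood at 1207, 2193 and 321 CPM in AAV-GFP and at 3185, 21713, 589.6 and 1655 CPM in AAV-GSTA4. The step from AAV-GSTA4 replicate 1, the next highest library, to replicate 2 was 6.82-fold for Crygs, 5.79-fold for Cryba1 and 5.46-fold for Cryba4. It was 2.73-fold for Cryaa and 2.15-fold for Cryab, the smallest steps of the 9.

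Levels were compared between genes per kilobase of annotated exon (GENCODE M21, the union of all isoforms, so that genes with rare long isoforms are understated). By the median over the 7 libraries the order was Crybb2 (2251 CPM per kilobase), Crygs (1891), Cryaa (1865), Cryba1 (1709.6), Cryab (1053), Cryba2 (496), Cryba4 (412), Crybb3 (85.5) and Crybb1 (78.8). The upper part of this order was not fixed: on this scale Crygs was above Cryaa in 4 of 7 libraries and Crybb2 above Crygs in 5 of 7. Cryba4 lay above Crybb3 in 7 of 7, so the minor members Crybb3 and Crybb1 were set apart from the rest, while Crybb3 was above Crybb1 in only 3 of 7.

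Every one of the 36 pairs of members varied together by the rule used, a Pearson correlation of log2 CPM of at least 0.9 with adjusted permutation p under 0.05 for both Pearson's r and Spearman's rho. Values of r over the 7 libraries ran from 0.926 to 0.999 with a median of 0.987, and rho ran from 0.929 to 1, with 12 pairs at exactly 1. The highest p-values adjusted over the 36 pairs were 0.00218 for r and 0.00675 for rho (exact permutation tests, two-sided). The tightest pair was Cryba4 and Crybb3 (r = 0.999), and the loosest was Cryba1 and Crybb1 (r = 0.926). These pairs share their libraries and their scaling, so they are not independent of one another. The share of pairs of all tested genes that meet this rule was not computed. Genes outside the crystallins also reached high r with a member, such as Eno3 with Cryab (0.983).

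With AAV-GSTA4 replicate 2 and AAV-GFP replicate 3 left out, the libraries farthest from the median for every member, r over the remaining 5 was at least 0.9 in 32 of 36 pairs. The other 4 all involved Cryba1 or Crybb1: Cryba1 with Crybb1 (0.757), with Cryaa (0.861) and with Crybb3 (0.898), and Crybb1 with Crygs (0.882). Without AAV-GSTA4 replicate 2 alone, 32 of 36 pairs still met the rule, with a lowest r of 0.796. After subtraction of each group's mean, 36 of 36 met it with a lowest r of 0.911. Groups of 3 and 4 are too small for a correlation within each.

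Members that are neighbours on a chromosome were not always the most alike. Crybb2 and Crybb3, whose starts lie 11467 bases apart on the same strand, had r = 0.997 and rho = 1. Cryba4 and Crybb1, which point away from each other with starts 3297 bases apart, had r = 0.964 and rho = 0.929, below the median of the 36 pairs. These values over 7 libraries are given as a description.

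The make-up of the crystallin counts shows which members kept a steady place among the others. Crybb2 took 27.2% to 35.0% of the summed counts of the 9 and Cryba2 took 3.41% to 4.19%, spans of only 1.28-fold and 1.23-fold. Cryab varied most, from 4.03% in AAV-GSTA4 replicate 2 to 13.8% in AAV-GSTA4 replicate 3, a 3.43-fold span. Its share was lowest where the crystallin total was highest. Cryaa took 17.6% in AAV-GSTA4 replicate 2 and 30.9% in AAV-GFP replicate 3. Crygs ran the other way, at 15.6% in AAV-GSTA4 replicate 2 and 8.29% in AAV-GFP replicate 3. Crybb1 took 0.308% to 0.740%, a 2.40-fold span, with its lowest share in AAV-GFP replicate 1, where Cryba1 had its highest share (23.4%).

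**Figure D2:**
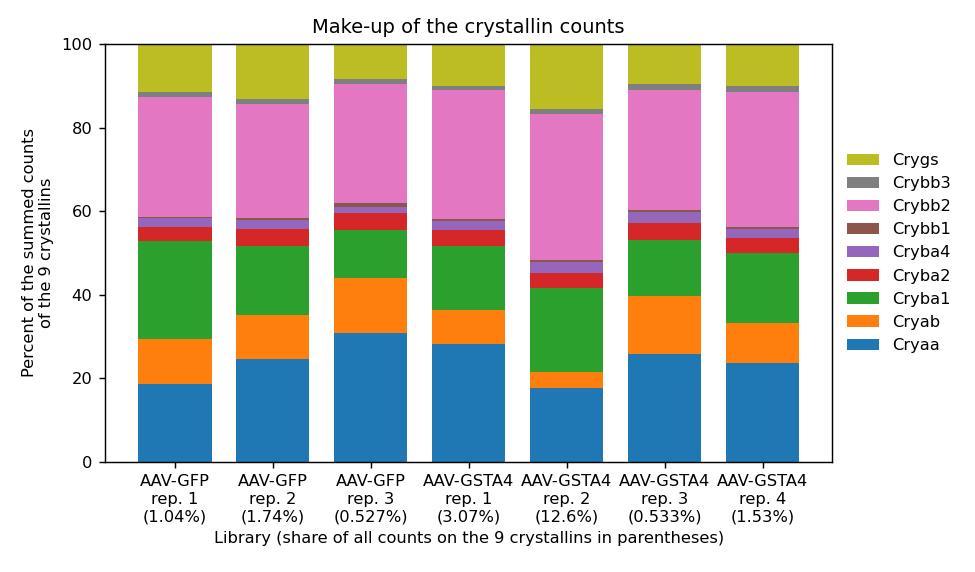
Share of each crystallin in the summed counts of the 9 (stacked bars, percent) in each library, with the share of all library counts on the 9 genes in parentheses. Cryab shrinks to 4.03% and Crygs reaches 15.6% in AAV-GSTA4 replicate 2, while Crybb2 stays between 27.2% and 35.0%.

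No member kept a steady level. Steady was defined as a standard deviation (SD) of log2 CPM over the 7 libraries at or below the median of all 15075 tested genes, 0.53. The members' SDs ran from 1.13 for Cryab to 1.95 for Crygs, and 85.0% and 98.1% of tested genes had a smaller SD than these genes, respectively. Cryaa (1.53) and Cryba2 (1.63) lay between them. Without AAV-GSTA4 replicate 2 the SDs were smaller, from 0.84 for Cryab to 1.29 for Cryba1, and 0 of 9 were steady.

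The other genes that bear the crystallin name differed in spread. The gamma crystallins Crygb, Crygc and Crygd, structural proteins of the lens nucleus, followed the wide pattern, with SDs of 2.47, 2.20 and 2.62 and their highest values, 169, 105 and 20.9 CPM, in AAV-GSTA4 replicate 2. These are close copies of one another, and how reads matching several genes were counted is not given in the sources used here. Cryga, Cryge and Crygf were too low to test, with 8, 1 and 0 counts in all. Crygn, a gamma crystallin also found in retina, had an SD of 0.56, and its highest library was AAV-GSTA4 replicate 4.

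The smallest spreads belonged to enzyme crystallins. Cryz, a quinone reductase, stood at 75.8, 78.3 and 47.2 CPM in AAV-GFP and at 94.1, 70.1, 104 and 104 CPM in AAV-GSTA4, an SD of 0.40. Cryl1, a gulonate dehydrogenase, had an SD of 0.42 and a range of 9.83 to 22.7 CPM. These 2 of the 11 other crystallin genes tested met the definition of steady, and Cryzl1 (SD 0.54) and Crygn missed it narrowly. Crym, a thyroid hormone binding protein, was highest in AAV-GFP replicate 3 (38.3 CPM), the library where the 9 were lowest.

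**Figure D3:**
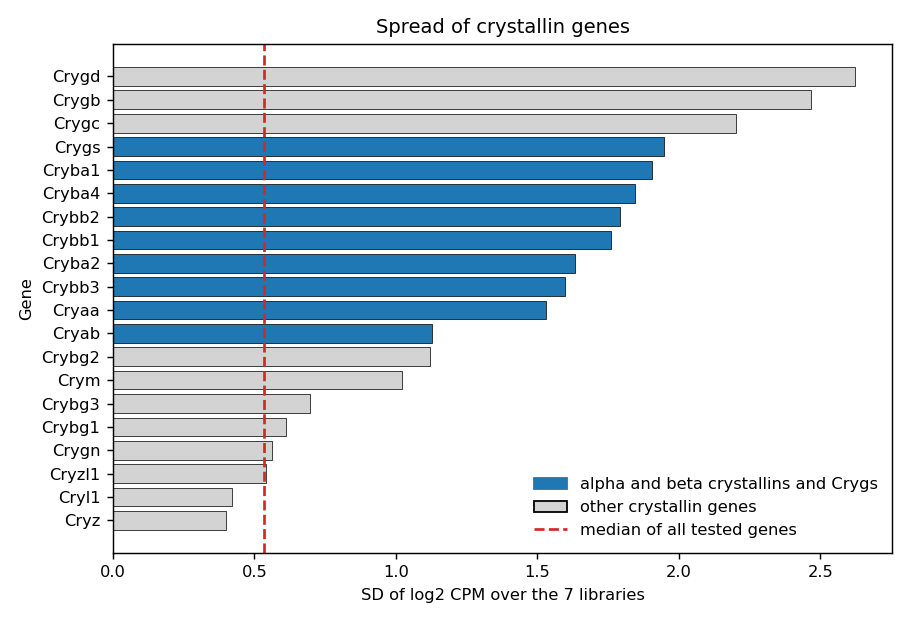
SD of log2 CPM over the 7 libraries for the 9 crystallins (blue) and 11 other tested crystallin genes (grey), with the median of all tested genes as a dashed line at 0.53. The 9 lie between 1.13 and 1.95, while Cryz (0.40) and Cryl1 (0.42) lie below the line.

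Lens fibre genes that are not crystallins varied with the members. The list comprised 14 genes, all in the table, among them Mip, the lens water channel, Bfsp1 and Bfsp2, the beaded filament proteins, and Lgsn (lengsin). Their summed level was 427, 593 and 405 CPM with AAV-GFP and 934, 14752, 279 and 578 CPM with AAV-GSTA4. Lgsn stood at 24.2 to 99.4 CPM in AAV-GFP and 16.3 to 6145.5 CPM in AAV-GSTA4, and Bfsp2 at 39.0 to 156 and 46.6 to 4366 CPM. Tdrd7, which is also made outside the lens, stood at 164 to 306 and 160.2 to 984 CPM, and Lctl at 4.17 to 9.68 and 2.47 to 1205 CPM. Tdrd7 made up 75.5% of the sum in AAV-GFP replicate 3 and 61.4% in AAV-GSTA4 replicate 3, against 6.67% in AAV-GSTA4 replicate 2 and 25.5% to 38.4% in the other libraries. Without it, the other 13 genes summed to 263, 383 and 99.3 CPM with AAV-GFP and 696, 13768, 108 and 418 CPM with AAV-GSTA4. Each of these 4, the most abundant of the list, was highest in AAV-GSTA4 replicate 2. No gene of the list was at 0 in all libraries, though Lim2, Lenep, Dnase2b and Birc7 were at 0 in at least 1.

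The 9 members correlated with log2 of this sum at r = 0.862 (Cryab) to 0.929 (Crybb1) and rho = 0.893 to 0.964. The p-values adjusted over the 9 relations were at most 0.00575 for r and 0.0123 for rho (exact permutation tests, two-sided). The share of all tested genes that pass against this sum is not given here, so these counts cannot be set against it. Over 5 libraries, without AAV-GSTA4 replicates 2 and 3, which lay farthest from the median of the sum, r ran from 0.756 (Cryba1) to 0.986 (Crybb1). Without AAV-GSTA4 replicate 2 alone, r was 0.782 to 0.917, its adjusted p was 0.05 to 0.0792 (exact permutation tests), and 0 of 9 relations passed for both measures. With library totals in place of trimmed-mean scaling, 0 of 9 passed, because adjusted p for rho was 0.0540 to 0.0881 (exact permutation tests), although r stayed at 0.868 to 0.925. Against the sum of the 13 genes without Tdrd7, an alternative chosen after seeing the data, r was 0.943 (Cryab) to 0.981 (Crybb2) and rho 0.929 to 1. In that form 9 of 9 relations passed, with adjusted p of at most 0.00119 for r and 0.00675 for rho (exact permutation tests). Tdrd7 had the lowest r with Cryaa of the list (0.702), so these p-values are a description and not an independent test. All 9 also passed with library totals (r of 0.948 to 0.982) and without AAV-GSTA4 replicate 2 (r of 0.879 to 0.983), where 0 of 9 passed with Tdrd7 in the sum.

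AAV-GSTA4 replicate 2 stood apart in the ratio of crystallins to lens fibre genes. The summed crystallin level was 39.8, 43.4 and 39.1 times the sum of the 13 lens fibre genes without Tdrd7 after AAV-GFP and 45.7, 10.1, 56.9 and 39.2 times after AAV-GSTA4. With Tdrd7 in the sum the ratios were 24.5, 28.1 and 9.57 after AAV-GFP and 34.1, 9.46, 22.0 and 28.3 after AAV-GSTA4, so the low ratio of AAV-GFP replicate 3 was present only with Tdrd7, and that of AAV-GSTA4 replicate 2 either way. From AAV-GSTA4 replicate 1 to replicate 2 the lens fibre sum was 15.8-fold higher (19.8-fold without Tdrd7) and the members 2.15-fold to 6.82-fold higher. Over the other 6 libraries the lens fibre sum spanned 7.02-fold without Tdrd7, within the members' 5.18-fold (Cryab) to 10.9-fold (Cryba1), and 3.34-fold with it. The slope of log2 CPM on log2 of the sum of all 14 was smallest for Cryab (0.51) and largest for Crygs (0.93). Of the lens epithelium markers, Foxe3, the transcription factor that defines that layer, had 2 counts in AAV-GSTA4 replicate 2 and 0 in every other library. Other genes of that list, which are not specific to it, were highest in AAV-GSTA4 replicate 2: Cdh1, an epithelial cadherin, stood at 31.6 CPM there and 2.76 to 12.0 CPM elsewhere, and Pitx3 at 4.65 CPM there and 0.233 to 1.63 CPM elsewhere. The summed lens epithelium list, led by Gja1, which many cells express, stood at 143 to 627 CPM in AAV-GFP and 316 to 626 CPM in AAV-GSTA4. The part of lens tissue in the crystallin levels was not tested.

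**Figure D4:**
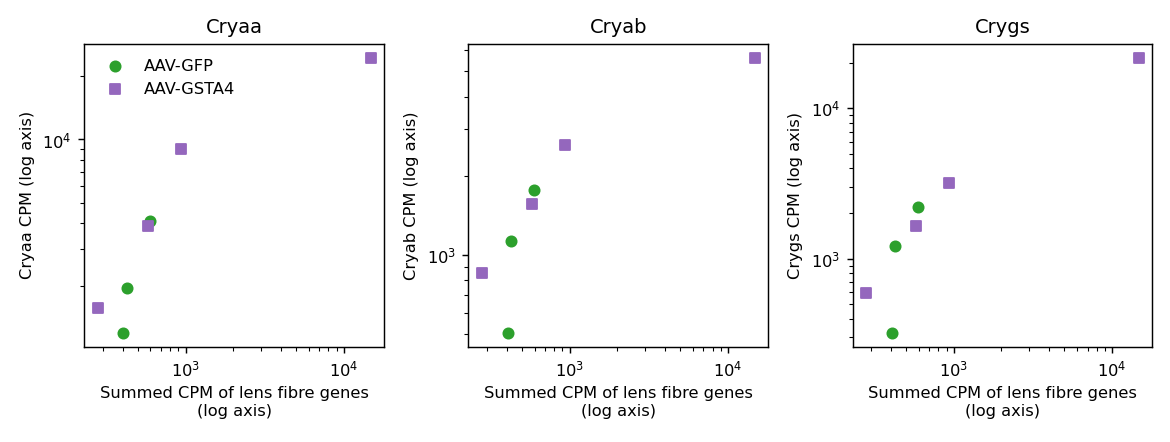
CPM of Cryaa, Cryab and Crygs against the summed CPM of 14 lens fibre genes (both axes log), one point per library, AAV-GFP as circles and AAV-GSTA4 as squares. AAV-GSTA4 replicate 2 lies alone at 14752 CPM on the horizontal axis, and the other 6 libraries lie between 279 and 934 CPM.

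Transcription factors of the lens programme lay on both sides between the groups. Of 16 listed, 14 were tested, 8 higher and 6 lower in AAV-GSTA4, and 0 passed (smallest adjusted p-value 0.377, edgeR). Pax6, which specifies eye tissues including lens and RPE, stood at 149 to 200.5 CPM in AAV-GFP and 44.2 to 162 CPM in AAV-GSTA4. Hsf1 stood at 18.6 to 55.5 CPM in AAV-GFP and 29.1 to 43.3 CPM in AAV-GSTA4. Of the Maf family, Mafg stood at 17.7 to 34.2 and 24.5 to 43.6 CPM, and Maf at 20.6 to 31.9 and 18.4 to 35.9 CPM. Hsf4, the heat shock factor of the lens, stood at 1.96 to 2.69 CPM in AAV-GFP and 3.23 to 9.54 CPM in AAV-GSTA4, groups that did not overlap, as for 12.0% of all tested genes. By edgeR, its adjusted p-value was 0.377. Hsf4 also counts among the lens fibre genes. Prox1, needed for fibre elongation, was highest in AAV-GSTA4 replicate 2 (82.5 CPM) against 6.17 to 30.2 CPM in the other libraries.

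Relatives of the alpha crystallins among the small heat shock proteins were mixed. Of 9 listed, 6 were tested, 3 higher and 3 lower, and 0 passed (smallest adjusted p-value 0.498, edgeR). Hspb1, an inducible chaperone, reached 125 CPM in AAV-GSTA4 replicate 2 against 3.52 to 23.9 CPM elsewhere. Also highest there were Hspb2 (18.8 CPM), Hspb3 (2.11 CPM) and, narrowly, Hspb11 (29.7 CPM, against 27.7 CPM in AAV-GFP replicate 1). Hspb6 and Hspb8, also chaperones, were not highest there: Hspb6 was highest in AAV-GFP replicate 3 (157 CPM) and Hspb8 in AAV-GFP replicate 1 (54.8 CPM). Hspb2, which lies 1029 bases start to start from Cryab, gave r = 0.863 and rho = 0.964 with it over the 7 libraries, a description that includes any shared reads.

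The genes most like the members in pattern, outside the crystallins and the lists, were sought among 11109 genes whose log2 CPM averaged 2 or more. For both Cryaa and Cryab the closest was Eno3, the muscle enolase, with r = 0.969 and r = 0.983 and rho = 1 for each over 7 libraries. Eipr1, a factor of vesicle traffic, was next for both (r = 0.959 and 0.983), though it ran only from 25.8 to 43.1 CPM. Gpd1, a glycerol phosphate dehydrogenase, followed for both (0.959 and 0.973). The remaining places went to Casq1 and Carhsp1 for Cryaa (0.953 and 0.951) and to Gpr160 and Mob2 for Cryab (0.972 and 0.968). For Crybb2 they were Carhsp1 (0.984), Gpd1 (0.983), Lix1 (0.976), B3gnt5 (0.976) and Eipr1 (0.973). B3gnt5, a glycolipid glycosyltransferase, stood at 246 CPM in AAV-GSTA4 replicate 2 and at 1.25 to 12.6 CPM in the other 6 libraries. These were picked as the highest of many values over 7 libraries, and no test applies.

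Between the treatments, all 9 crystallins had higher means in AAV-GSTA4, but none passed the test. The comparison asks whether GSTA4 delivery altered the aged RPE transcriptome. By the quasi-likelihood test of edgeR, adjusted after Benjamini and Hochberg over all 15075 genes, 0 of 9 reached an adjusted p-value under 0.05, as did 0% of all genes. Unadjusted p-values were under 0.05 for 5 of 9 (Cryaa, Cryba4, Crybb1, Crybb2 and Crybb3), all higher, against 5.27% of all genes higher and 6.63% lower, 11.9% in either direction. That count of 5 was not stable over the alternatives. It was 0 with limma-voom (against 3293 of 15075 genes), with a block by library number and without AAV-GSTA4 replicate 2. It was 9 with a block by title number (against 849 of 15075 genes) and without AAV-GSTA4 replicate 3. At the adjusted threshold, DESeq2 called 0 of 9, against 1.33% of all genes, and limma-voom 0 of 9. A log2 fold change above 0 was seen for 44.6% of all tested genes, and because the 9 vary together, their shared direction is not 9 independent observations.

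Fold changes were large and imprecise. The log2 fold change was 2.56 ± 1.05 (SE) for Cryba4, the largest (edgeR, adjusted p-value 0.393), and 1.24 ± 0.65 (SE) for Cryab, the smallest (edgeR, adjusted p-value 0.474). The median over the 9 was 2.28, against -0.07 over all tested genes. Cryaa averaged 2415 ± 1501 CPM (SD, n = 3) after AAV-GFP and 9734 ± 10328 CPM (SD, n = 4) after AAV-GSTA4, so the SD of the latter exceeded its mean. Crygs averaged 1241 ± 936 CPM (SD, n = 3) and 6786 ± 10008 CPM (SD, n = 4).

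These values depended on which libraries were kept. In scaled CPM, AAV-GSTA4 replicate 2 was the highest and AAV-GFP replicate 3 the lowest library for every member. Leaving either out was therefore bound to lower the estimates. Other removals raised them. They were 1.55 to 2.95 without AAV-GSTA4 replicate 3 and 1.71 to 3.28 without AAV-GFP replicate 2. Without AAV-GSTA4 replicate 2 the log2 fold changes were 0.55 (Crygs) to 1.05 (Crybb1). Without both that library and AAV-GFP replicate 3 they were 0.08 (Crygs) to 0.73 (Crybb1), and adjusted p-values were 0.737 to 0.975 (edgeR). Cryba1 went from 2.28 to 0.11 and Cryab from 1.24 to 0.21 in that fit. Lens fibre genes went the same way as the members between groups. Of 12 tested, 12 were higher in AAV-GSTA4 (median log2 fold change 3.54), against 44.6% of all tested genes. At an unadjusted p-value under 0.05, 8 were higher, against 5.27% of all genes, and 0 passed at an adjusted one (edgeR). Rod markers, 10 of 10 with a negative log2 fold change, summed to 12356 to 37088 CPM in AAV-GFP and 6559 to 12283 CPM in AAV-GSTA4. All 10 were lower at an unadjusted p-value under 0.05 (edgeR), against 6.63% of all genes. The groups did not overlap for 7 of the 10, against 12.0% of all genes. RPE markers summed to 22776 to 69729 and 60561 to 109999 CPM, a sum led by Rgr, Ttr and Rpe65. Of the 11, 8 had a positive log2 fold change, and the pigment genes Mlana (-0.94), Pmel (-0.70) and Tyrp1 (-0.47) a negative one. At an unadjusted p-value under 0.05, 4 of the 11 were higher and 0 lower (edgeR). Muller glia and astrocyte markers summed to 4686 to 6256 and 7330.4 to 9757 CPM, most of it Apoe (3289 to 5106 and 5590 to 8975 CPM). Of those 8 genes, 4 had a positive and 4 a negative log2 fold change, with a median of -0.15. Ciliary body and iris markers summed to 179 to 405 and 251 to 426 CPM, most of it Acta2, the 1 gene of 7 with a positive log2 fold change, and the median was -1.04. Ocular surface markers, 6 of 6 with a negative log2 fold change, summed to 354 to 526 and 40.0 to 407 CPM. At an unadjusted p-value under 0.05 (edgeR), the Muller glia and astrocyte list had 1 gene higher and 1 lower. The ciliary body and iris list had 2 lower and the ocular surface list 1 lower. Within these lists 0 genes passed the adjusted threshold, and their part in the crystallin difference was not tested.

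**Figure D5:**
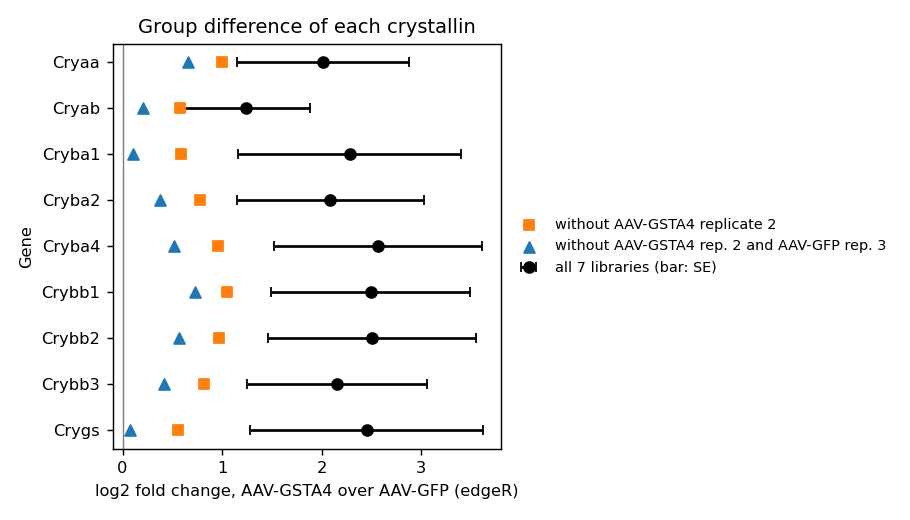
Log2 fold change of each crystallin, AAV-GSTA4 over AAV-GFP, from edgeR: all 7 libraries (circles with SE bars), without AAV-GSTA4 replicate 2 (squares), and without that library and AAV-GFP replicate 3 (triangles). Estimates of 1.24 to 2.56 move to 0.08 to 0.73 when both are left out. In scaled CPM these are the highest and the lowest library for every gene, so a drop was built in.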

How the data were processed

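Per the labels' protocols, libraries were made from polyA RNA by full-length cDNA synthesis for small inputs, followed by transposase fragmentation and PCR. Molecular identifiers are not named there, and the floors therefore reflect counting error alone. Raw read counts were deposited by the authors per gene symbol, and the submitters' processing notes name STAR 2.7.1a, featureCounts 1.6.2 and the builds GRCm38 and GRCh38, without roles. Annotation, strand setting and multi-mapping rule are not given in the sources used here. Columns were matched to samples by library name, and replicates are numbered by title. Nothing states that replicates are separate animals, so p-values measure only the spread between these libraries.

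Counts were tested with edgeR 4.0.16 in R 4.3.3 (quasi-likelihood, robust, trimmed-mean scaling, default expression filter, group only), with Benjamini-Hochberg adjustment over all genes. CPM are trimmed-mean scaled, and log2 CPM used a prior count of 2. Of repeated symbols, such as Lim2, the row with the highest total was used. Exact permutation tests used every order of the libraries. No 2 libraries agreed within sampling noise. Alternatives were other scalings, filters, DESeq2 1.42.0, limma-voom (limma 3.58.1), replicate blocks, a prior count of 0.5 and each library left out. Named genes were the members, up to 4 per list by the highest mean CPM, and the 5 highest r for Cryaa, Cryab and Crybb2. Others named singly (Hsf4, Maf, Hspb2, Hspb3, Foxe3, genes at 0, the pigment genes and crystallins beyond the 9) were picked after their values were seen. The members and lists were chosen with earlier results of these data known.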

Additional observations from a re-analysis of the deposited data

Results flagged for a closer look

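Over the 4 AAV-GSTA4 libraries, replicate 2 was isolated for 3 of the 9 crystallins: its gap to the next library, as a share of the group's range in CPM, was 0.853 for Cryba1, 0.853 for Cryba4 and 0.877 for Crygs. Chance isolates a library in about 1 of 20 such groups only if values are normally distributed. These CPM are not on a log scale and are skewed, so that rate may not hold here. On the log2 scale the rule was not applied. Replicate 2 was also the highest library for the other members. These genes vary together, so the 3 are not separate observations.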

How the results depend on the processing

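Each crystallin was higher in AAV-GSTA4 in all 16 alternatives, and 0 of 9 passed the adjusted threshold in any of them. The smallest adjusted p-value for a member was 0.220 (Crybb1, DESeq2). With library totals, the all-gene median log2 fold change went from -0.07 to -0.37 and those of the members lay between 1.01 and 2.35. In limma-voom with quality weights they lay between 0.25 and 0.70. The count of all genes past the threshold, 0 in the main test with 1794 at an unadjusted p-value under 0.05, was 201 with DESeq2, 1 with a replicate block by title number, 1 with a block by library number, and 0 to 1 with each library left out, where the 1 came without AAV-GSTA4 replicate 3; the cause was not tested. Equal numbers share no stated origin, and correlations of deviations between same-numbered libraries were -0.09, 0.00 and 0.01 by title and -0.09, 0.01 and -0.13 by library number. With a replicate block the log2 fold change of Cryaa was 1.75 by title and 0.94 by library number. The number of pairs varying together was 36 in every alternative except without AAV-GSTA4 replicate 2, where it was 32. The number of members passing against lens fibre genes, 9, was 0 with library totals and ranged from 0 (without AAV-GSTA4 replicate 2) to 9 with single libraries left out; without Tdrd7 in the list it was 9, also with library totals and without AAV-GSTA4 replicate 2. No member became steady in any alternative. The counts are deep for these genes, so replicate spread and not depth limits the comparison. Leaving out both AAV-GFP replicate 3 and AAV-GSTA4 replicate 2, and leaving out Tdrd7, were chosen after seeing the data.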

Other observations

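Within AAV-GSTA4, the crystallins and the transgene ranked the libraries in the same order. The hGSTA4 row stood at 221, 251, 2.64 and 43.6 CPM in replicates 1 to 4, and the summed crystallins at 31848, 139514, 6134 and 16384 CPM. Both were highest in replicate 2, then 1, 4 and 3. The order was not particular to the crystallins: the 13 lens fibre genes without Tdrd7 had it too, at 696, 13768, 108 and 418 CPM in replicates 1 to 4. With 4 libraries no correlation is given, and the pattern was noticed in the data. In AAV-GFP the d2EGFP row stood at 4.61, 153 and 113 CPM in replicates 1 to 3 beside summed crystallins of 10485, 16638 and 3876 CPM, which is not the same order.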
